A study of Mus musculus with 18 samples.

Results

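The comparison described here is that of injured knees at day 7 with injured knees at day 1 after rupture of the anterior cruciate ligament (ACL), a ligament that stabilises the knee. It takes the 6 libraries that the labels give as right knees at these days, 3 at each, of the 18 libraries measured. All mice were 12-week-old male C57Bl/6J mice without any genetic change. In the injured groups the right knee was loaded once at 12 N, from a preload of 0.5 N, until the ligament tore. The left knees of the same animals form the contralateral groups (3 libraries at day 1 and 3 at day 7), and 6 libraries came from naive mice that the labels place at day 7. RNA came from the cartilage of the femoral condyles and was sequenced as total RNA after removal of ribosomal RNA. Each injured library was a pool of knees, of 2 mice at day 1 and of 4 mice at day 7, so that no library stands for 1 animal and the pools of the 2 days differ in size. The text deposited with the series instead gives 4 mice for every sample. Day 1 and day 7 knees came from different mice, and the library numbers run in order from day 1 to day 7, so that day, pool size and library order cannot be told apart.

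Articular cartilage is built by chondrocytes, which lay down a matrix of type II collagen and the proteoglycan aggrecan. When a joint is torn or loaded abnormally, cells at its surface and margins can proliferate, migrate and make type I and type III collagen, as fibroblasts do in a healing wound. Growth factors of the TGF-beta, BMP, Wnt, FGF and IGF families act on both kinds of cell. The contrast of day 7 with day 1 asks which of these genes changed within the first week, after the first day of the injury had passed.

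The injured libraries held 21149762 to 29086832 estimated counts at day 1 and 19296475 to 26931502 at day 7. Values below are CPM, that is estimated counts scaled to library size, unless a sentence says otherwise. The label of cartilage was checked against 14 chondrocyte markers, all of which were measured. Col2a1, the main collagen of cartilage, stood at 493, 331 and 676 TPM (a level scaled to transcript length and library size) in the day 1 libraries and at 276, 370 and 360 at day 7. Col1a1, the collagen of bone, tendon and fibrous tissue, stood at 1430, 1260 and 3070 TPM at day 1 and 3170, 3440 and 4360 at day 7. The TPM of Col1a1 thus lay above that of Col2a1 in each of the 6 libraries. Haemoglobin was also abundant, with Hbb-bs between 7040 and 23000 TPM, and Acta1 of skeletal muscle between 126 and 1860 TPM. Bglap, a marker of osteoblasts, lay between 127 and 835 TPM. The samples thus held transcripts that mark blood, bone and muscle beside those of chondrocytes. In bulk RNA, fewer cells of a type and less RNA per cell cannot be told apart.

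Single libraries stood apart from their groups. Injured day 1 replicate 2 lay at −29.5 on the third principal component, which held 10.4% of the variance, where the other injured day 1 libraries lay at 11.3 and 25.1. It had the lowest summed level of adipocyte markers at day 1 (257 CPM, against 915 and 804) and of muscle markers (3650 CPM, against 8560 and 13300). Contralateral day 1 replicate 3 (−27.5, with its group at 5.16 and −0.25) and naive replicate 5 (−30.7) lay at the same end of this component. Contralateral day 7 replicate 1 lay at −80.9 on the second component, where the 17 other libraries lay above −8, and 42.5% of its counts fell on its 10 most abundant genes. Counts of calls without the injured and contralateral libraries named here are given below. No fit was made without the naive library.

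The first component held 33.4% of the variance in the variance-stabilised counts. The day 7 injured libraries lay on it at 50.5, 58.8 and 65.9. The day 1 injured libraries lay at −7.90, −9.21 and −8.96, among the 12 contralateral and naive libraries, which ranged from −24.6 to −3.68. Injured knees at day 1 were thus near to uninjured knees on the axis that set day 7 apart.

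At day 7, 29 of 32 tested genes of collagen synthesis and cross-linking were called higher than at day 1. So were 7 of 11 fibrillar collagens, 20 of 31 matricellular and adhesive glycoproteins and 15 of 33 other collagens, of which 1 was lower. The genes that were lower were mostly non-coding and of low abundance. Of 21129 genes tested, 1910 (9.04%) were called higher at day 7 and 1347 (6.38%) lower, with a false discovery rate (FDR) no higher than 0.05 and a change of 1.5-fold or more by edgeR's quasi-likelihood test. By the FDR alone, 3427 rose and 1733 fell. The 2 groups of libraries did not overlap for 1878 of the 1910 and for 1296 of the 1347. Over all genes tested, they did not overlap for 22.8% with day 7 above and for 17.5% with day 7 below. A change of at least 4-fold was reached by 216 of the higher and 76 of the lower genes. Protein-coding genes made up 95.2% of the higher and 43.7% of the lower genes. Upper quartile scaling, which moved the median over all genes of the log2 fold change from −0.0021 to −0.19, gave 1280 higher and 2564 lower genes. The higher genes were then 33.3% of those called, against 58.6% with TMM, so that the balance of the directions depends on the scaling. The number of lower genes fell to 884 without injured day 1 replicate 3, to 849 without day 7 replicate 2 and to 891 without day 7 replicate 3. Without day 1 replicate 2, 1723 were higher and 1062 lower.

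**Figure D1:**
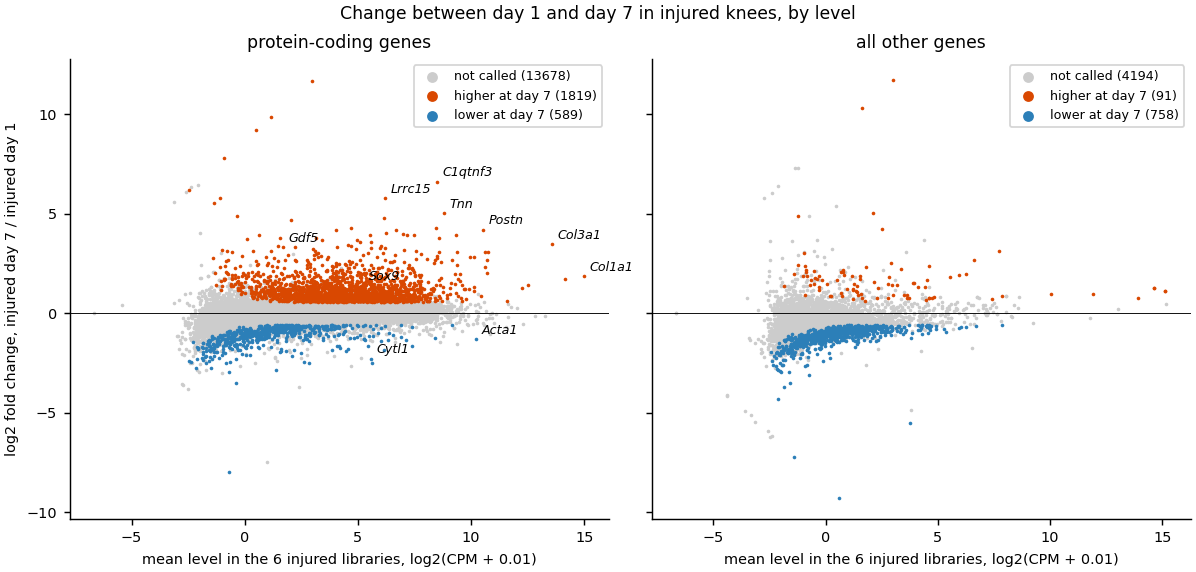
Mean level of each gene in the 6 injured libraries (x axis, log2 of CPM plus 0.01) against its log2 fold change between day 7 and day 1 (y axis), for protein-coding genes (left) and all other genes (right). Each point is a gene, orange where called higher at day 7 and blue where called lower, and the higher genes lie mostly on the left panel (1819 of 1910) while more of the lower genes lie on the right panel (758 of 1347). The 6 called points above C1qtnf3 had no counts in any day 1 injured library, so that their fitted fold changes depend on the fit.

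C1qtnf3 (ENSMUSG00000058914, chromosome 15, 10952332 to 10980150 on GRCm38) led the genes whose injured libraries did not overlap and which reached at least 5 CPM. It encodes a secreted protein of the C1q and TNF related family, also known as CTRP3 or cartonectin. It stood at 7.59, 5.09 and 9.95 CPM in the day 1 libraries and at 596, 674 and 892 CPM at day 7. All naive (5.37 to 12.3 CPM) and contralateral (4.68 to 8.23 CPM) libraries lay in the range of the day 1 knees or close to it, so that the day 7 injured libraries alone were high. The log2 fold change was 6.60 (standard error 0.359, edgeR FDR 4.12e-08). Next came Lrrc15, a leucine-rich repeat membrane protein of activated fibroblasts. It stood at 2.65, 1.43 and 3.90 CPM at day 1 and at 110, 132 and 190 CPM at day 7 (log2 fold change 5.80, standard error 0.431, edgeR FDR 4.30e-07). Tnn, which encodes the matrix glycoprotein tenascin-W, was measured at 17.7, 30.1 and 31.8 CPM and then at 675, 817 and 1090 CPM. Postn encodes periostin, a matrix protein of ligament, periosteum and wounds. Its day 1 levels of 114, 207 and 148 CPM compared with 2090, 2910 and 3470 CPM at day 7 (log2 fold change 4.19, standard error 0.569, edgeR FDR 1.05e-04). In each of these genes the lowest day 7 library lay at least 10 times above the highest at day 1.

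Promoter sequences, from 250 bases before to 50 after the start of transcription, were held by RefSeq (GRCm38.p6) for 9 of the 10 genes that rose most. Those of 3 of them are shown because, of the 5 with a match to a short motif, they hold theirs closest to the start. Capitals mark matches on either strand to TATAAA (the TATA box), TGANTCA (the core of AP-1 sites) or GGAATG (the core of TEAD sites). They follow for C1qtnf3 at chr15:10952082-10952381 (plus strand), Lrrc15 at chr16:30283205-30283504 (minus strand) and the second listed start of Postn at chr3:54360857-54361156 (plus strand).
C1qtnf3: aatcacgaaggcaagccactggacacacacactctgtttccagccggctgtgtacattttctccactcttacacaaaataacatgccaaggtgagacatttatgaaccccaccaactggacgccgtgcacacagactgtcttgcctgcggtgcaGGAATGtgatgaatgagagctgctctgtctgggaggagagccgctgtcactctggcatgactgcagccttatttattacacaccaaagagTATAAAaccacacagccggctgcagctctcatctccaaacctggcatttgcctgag
Lrrc15: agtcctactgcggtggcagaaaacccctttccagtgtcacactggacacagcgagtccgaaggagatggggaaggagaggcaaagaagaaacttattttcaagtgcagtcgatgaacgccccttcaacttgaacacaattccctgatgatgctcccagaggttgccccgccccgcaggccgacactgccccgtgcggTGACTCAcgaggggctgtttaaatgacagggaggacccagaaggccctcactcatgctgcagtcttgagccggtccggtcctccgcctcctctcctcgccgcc
Postn: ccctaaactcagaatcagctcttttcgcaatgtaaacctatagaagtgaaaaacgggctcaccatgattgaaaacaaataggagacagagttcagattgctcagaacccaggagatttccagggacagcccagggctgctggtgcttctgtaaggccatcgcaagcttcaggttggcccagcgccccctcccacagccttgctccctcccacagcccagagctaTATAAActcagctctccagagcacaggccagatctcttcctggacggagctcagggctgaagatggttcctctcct
In Postn the TATAAA match begins 26 bases before the start, and in C1qtnf3 it begins 6 bases before the start and a GGAATG match 96 bases before it. The TGANTCA match of Lrrc15 begins 53 bases before the start. In 2 genes that are not shown, Tnn holds GGAATG 160 bases and Aspn TATAAA 207 and 178 bases before the start. Mest, Agtr2, Ptn, Moxd1 and the other Postn start hold none of the 3 motifs in this window. Of 27025 genes with such a promoter, 15.7% hold TATAAA, 8.97% TGANTCA and 16.6% GGAATG. Among the 1338 called higher with a promoter these shares were 9.64%, 7.25% and 18.4%, beside 10.6%, 7.03% and 14.8% of the 12409 tested protein-coding genes. Among the 442 called lower they were 24.0%, 11.1% and 17.4%. These are matches of letters and not binding sites.

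The other leading genes were Mest, Agtr2, Ptn, Aspn, Cthrc1 and Moxd1, with log2 fold changes from 4.17 to 4.77 and edgeR FDRs from 1.26e-07 (Mest) to 2.19e-04 (Moxd1). Mest is an imprinted gene of embryonic mesoderm. It stood at 3.81, 5.56 and 5.72 CPM at day 1 and at 94.4, 144 and 169 CPM at day 7. Aspn encodes asporin, a small leucine-rich proteoglycan that binds collagen and TGF-beta, and rose from 40.8, 20.2 and 42.7 CPM to 460, 660 and 889 CPM. Ptn encodes pleiotrophin, a heparin-binding growth factor of developing cartilage, and rose from 3.39, 0.858 and 3.44 CPM to 41.2, 52.3 and 55.9 CPM. Cthrc1, a secreted protein of collagen-producing fibroblasts, was at 6.92 to 15 CPM at day 1 and 145 to 256 CPM at day 7. Agtr2, the angiotensin II type 2 receptor, was the least abundant of the 10, at 0.166 to 0.445 CPM and then 5.40 to 9.63 CPM. The 10 genes were chosen among those whose injured libraries did not overlap between the days, so that their separation is no further result. Each was called in all fits that left out 1 library.

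**Figure D2:**
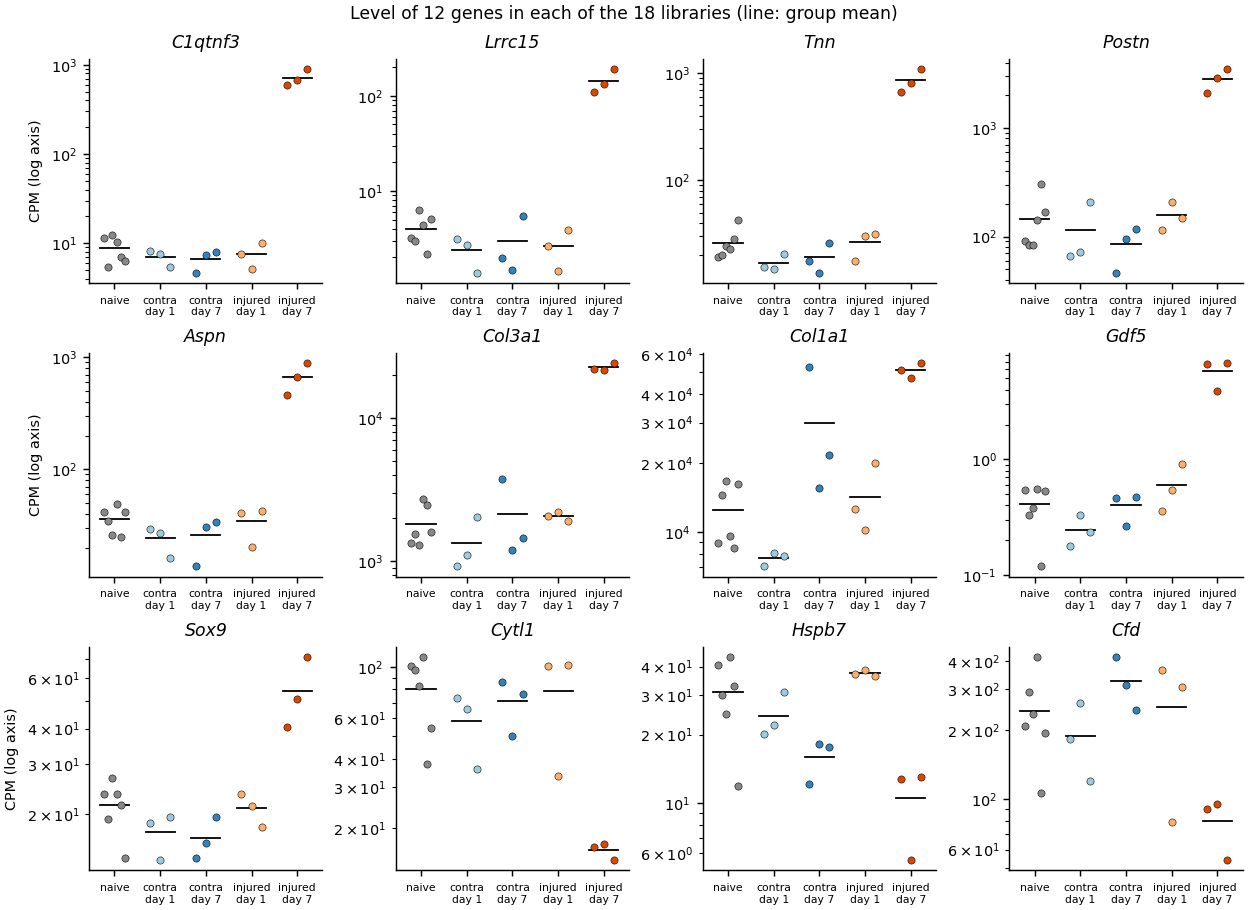
Level of 12 genes in each of the 18 libraries (y axis, CPM on a log axis), grouped as naive (6 libraries), contralateral and injured at day 1 and day 7 (3 libraries each), with a line at each group's mean. The 3 day 7 injured libraries stand above all others for C1qtnf3, Lrrc15, Tnn, Postn, Aspn, Col3a1, Gdf5 and Sox9 and below all others for Cytl1, whereas for Col1a1 contralateral day 7 replicate 1 reaches 52400 CPM, among the injured libraries.

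Genes of collagen synthesis and cross-linking formed the list with the largest share of members called among the 21 functional lists. Of 32 tested, 29 rose and none fell, with a median log2 fold change of 1.42, beside −0.0021 for all genes tested. Among them were the prolyl and lysyl hydroxylases (P4ha1 to P4ha3, Plod1 to Plod3), which modify collagen chains, the lysyl oxidases Lox, Loxl1, Loxl2 and Loxl3, which cross-link fibrils, and Serpinh1, the collagen chaperone. Loxl2 stood at 105, 66.8 and 109 CPM at day 1 and at 474, 589 and 706 CPM at day 7 (log2 fold change 2.67, standard error 0.223, edgeR FDR 1.47e-06). P4ha3 changed most, with a log2 fold change of 3.36. Of 11 fibrillar collagens, 7 rose, namely Col1a1, Col1a2, Col3a1, Col5a1, Col5a2, Col5a3 and Col11a1. Col3a1, the collagen of early repair tissue, stood at 2060, 2220 and 1910 CPM at day 1 and at 22000, 21700 and 24300 CPM at day 7 (log2 fold change 3.48, standard error 0.344, edgeR FDR 7.06e-06). Col2a1 was measured at 3550, 2190 and 3570 CPM at day 1 and 3610, 4120 and 3670 CPM at day 7, and its log2 fold change of 0.31 (edgeR FDR 0.332) did not pass. Of 33 other collagens 15 rose, including Col12a1 and Col14a1, which coat fibrils, Col6a1 to Col6a3 of the pericellular matrix and the basement membrane chains Col4a1 and Col4a2. Col26a1 was called lower, and 3 of this list were without day 1 replicate 2 (2 without day 1 replicate 1 or day 7 replicate 1 or 2).

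Col1a1 and Col1a2, which form type I collagen, were also higher at day 7 in each library of the uninjured knee, where the change did not pass the test. Col1a1 stood at 12600, 10200 and 20000 CPM in injured knees at day 1 and at 51100, 47000 and 54700 CPM at day 7 (log2 fold change 1.86, standard error 0.308, edgeR FDR 5.73e-04). In contralateral knees it stood at 7060, 8090 and 7870 CPM at day 1 and at 52400, 15500 and 21600 CPM at day 7 (log2 fold change 1.96, edgeR FDR 0.168). The contralateral groups did not overlap either, and the difference between the changes was −0.12 (edgeR FDR 0.941). Without contralateral day 7 replicate 1, which holds the value of 52400 CPM, the contralateral log2 fold change of Col1a1 was 1.27 and the difference 0.59 (edgeR FDR 0.524). Col3a1 differed from this: its contralateral log2 fold change was 0.66 and the difference 2.80 (edgeR FDR 0.00742).

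Of 31 genes of cartilage matrix and small proteoglycans, 12 rose and Cytl1 fell. The small leucine-rich proteoglycans Aspn, Bgn, Dcn, Fmod, Lum, Ogn and Prelp, which bind to collagen fibrils, all rose. Bgn, the most abundant, stood at 595, 669 and 685 CPM at day 1 and at 2060, 2390 and 3460 CPM at day 7. Acan, the aggrecan gene (394, 305 and 374 CPM, then 949, 1060 and 1250 CPM), and Comp rose, as did Matn2 and Matn4, matrilins of many connective tissues. Matn2 encodes matrilin-2, a filament-forming adaptor, and stood at 24.3, 20.7 and 25.1 CPM and then at 150, 177 and 200 CPM (log2 fold change 2.93, standard error 0.146, edgeR FDR 3.47e-08). Of genes more particular to cartilage, Matn3, Hapln1, Col9a1, Cnmd and Snorc were not called, with log2 fold changes from 0.12 to 0.40, and neither was Matn1 (−0.49, edgeR FDR 0.443). Of 31 matricellular and adhesive glycoproteins 20 rose and none fell (19 and 1 without day 1 replicate 2), among them tenascins (Tnc, Tnn), thrombospondins (Thbs1 to Thbs4), Ccn1, Ccn3, Ccn4 and Ccn5. Fn1, fibronectin, stood at 3180, 3390 and 3070 CPM at day 1 and at 6370, 8580 and 10700 CPM at day 7 (log2 fold change 1.43, standard error 0.271, edgeR FDR 0.00159).

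Enzymes that build and trim matrix sugars rose as well: 19 of 31 genes of hyaluronan and sulfated glycosaminoglycan synthesis, with none lower. Sulf2, which removes sulfate groups from heparan sulfate outside the cell, stood at 52.2, 39.7 and 50.3 CPM and then at 187, 241 and 333 CPM (log2 fold change 2.44, standard error 0.202, edgeR FDR 1.38e-06). Of 31 tested matrix metalloproteinases and Adamts enzymes, 12 rose and none fell. Adamts16 changed most (1.52, 0.890 and 1.28 CPM, then 14, 15 and 20.7 CPM), and the collagenase and gelatinase genes Mmp2 and Mmp14 rose by 3.10 and 2.56 on the log2 scale. The aggrecanase Adamts4 rose (log2 fold change 1.87, standard error 0.567, edgeR FDR 0.0262), whereas Adamts5 was not called (log2 fold change −0.08, edgeR FDR 0.724). Adamts7, a protease that cleaves COMP, stood at 5.98, 5.82 and 6.63 CPM and then at 14.5, 15.3 and 18.8 CPM. Mmp13, the collagenase of hypertrophic chondrocytes, was called (log2 fold change 0.78, edgeR FDR 0.0433) but not in any fit that left out 1 injured library (edgeR FDR 0.0747 to 0.124). Among 17 inhibitors and serine proteases 7 rose, namely Htra1, Htra3, Plat, Reck, Serpinf1, Serping1 and Timp2. Htra1, a secreted serine protease, stood at 67.4, 40.1 and 72.1 CPM and then at 244, 254 and 320 CPM.

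Signalling families moved in part. Of 56 genes of TGF-beta, BMP and activin signalling 13 rose and 2 fell, Bmp7 among them. Among the ligands were Tgfb2, Tgfb3 and the joint-forming factors Gdf5 and Gdf7, among the receptors Acvr1, Bmpr1a and Tgfbr2, and among the binding proteins Chrd, Fstl1, Ltbp1 and Ltbp3. The count of lower genes was 1 without day 1 replicate 3 or any of the day 7 replicates. Gdf5 stood at 0.355, 0.540 and 0.912 CPM at day 1 and at 6.68, 3.93 and 6.80 CPM at day 7 (log2 fold change 3.31, standard error 0.389, edgeR FDR 3.03e-05). Acvr1, a type I receptor of BMPs, stood at 20.5, 22.6 and 23.6 CPM and then at 44.0, 46.2 and 56.8 CPM. Of 51 tested Wnt genes 21 rose and 1 fell. The secreted modulators Dkk3, Frzb, Sfrp1, Sfrp2 and Sfrp4 rose, as did the ligands Wnt5a, Wnt5b, Wnt9a and Wnt16 and the receptors Fzd1, Fzd2, Fzd3, Fzd6, Fzd8, Ror1 and Ror2. Dkk3 changed most, from 19.1, 12.5 and 21.3 CPM to 213, 257 and 328 CPM. Sost, the Wnt inhibitor made by osteocytes, fell from 27.8, 16.1 and 27.5 CPM to 12.9, 12.6 and 9.07 CPM. Of 36 tested genes of the FGF, IGF, PDGF and VEGF axes 18 rose and Fgf9 fell. Igf2 rose from 9.44, 4.13 and 13.4 CPM to 49.0, 61.6 and 89.6 CPM, and Igf1 by 2.79 on the log2 scale. The call of Fgf9 (edgeR FDR 0.0448) was lost in 5 of the 6 fits without 1 injured library (edgeR FDR 0.0662 to 0.165).

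Of 22 tested genes of hedgehog, PTHrP and Notch signalling 6 rose, namely Dll4, Gli3, Jag1, Notch4, Pthlh and Smo. The count was 4 without day 1 replicate 2 or day 7 replicate 3. The call of Pthlh was lost without either of these or day 7 replicate 2 (edgeR FDR 0.0554 to 0.0713). Among 41 transcription factors of skeleton and mesenchyme 22 rose and none fell. Sox9, the regulator of chondrocyte identity, stood at 23.5, 21.3 and 18.1 CPM at day 1 and at 40.6, 50.9 and 71.5 CPM at day 7 (log2 fold change 1.39, standard error 0.226, edgeR FDR 4.77e-04). Scx, which acts in tendon and ligament cells, changed most of this list, from 3.10, 2.99 and 3.52 CPM to 22.9, 21.1 and 23.4 CPM. Of 20 genes of activated fibroblasts 11 rose, including Fap, Thy1, Itga11, Nox4 and Acta2, and none fell. Without day 1 replicate 2 there were 10 higher and 2 lower, the latter with Tpm1, a tropomyosin and the most abundant of the list (log2 fold change −1.11, edgeR FDR 0.0422). Immediate early and stress genes rose in 9 of 27 cases, with Nr4a2 furthest (6.37, 11.2 and 5.84 CPM, then 29.6, 28.1 and 70.2 CPM) and Atf3 by 1.19 (standard error 0.236, edgeR FDR 0.00222). Without day 7 replicate 3 this count was 5. Of 29 genes of protein folding and secretion in the endoplasmic reticulum 11 rose, and 7 without day 1 replicate 3. Fyn, a Src-family kinase, stood at 33.3, 37.4 and 42.4 CPM and then at 44.4, 56.0 and 55.0 CPM. Its log2 fold change of 0.48 (edgeR FDR 0.00633) lay under the 1.5-fold limit.

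Few inflammatory and growth-cycle genes were called between the days. Of 36 inflammatory mediators Ptgs2, the inducible prostaglandin synthase, rose (4.01, 14.1 and 2.49 CPM, then 32.3, 27.2 and 66.9 CPM) and Osm, oncostatin M, fell. Both calls were lost in 3 of the fits that left out 1 injured library: for Ptgs2 without day 1 replicate 1 or 3 or day 7 replicate 3 (edgeR FDR 0.0841 to 0.0927) and for Osm without day 1 replicate 2 or day 7 replicate 2 or 3 (edgeR FDR 0.0761 to 0.0892). Il6 and Ccl2 had standard errors above 1 on the log2 scale and were not called. By edgeR's test, none of 21 interferon-stimulated genes and none of 38 proliferation genes was called. At an unadjusted p of 0.05, 0 of the former passed and 4 of the latter, all lower at day 7, and neither DESeq2 nor limma-voom called any. Mki67, a marker of dividing cells, stood at 1380, 1450 and 1210 CPM and then at 938, 1270 and 1060 CPM. Of 19 circadian clock genes Bhlhe40 and Rora rose, and the count of higher genes was 1 without day 1 replicate 2 or 3 and 0 without day 7 replicate 3. Of the 13 proteins encoded by mitochondrial DNA none was called by edgeR or limma-voom and 1 by DESeq2. By edgeR, 6 were called lower without day 7 replicate 3 and 1 without day 1 replicate 2. All 13 log2 fold changes lay below 0, with a median of −0.52, and the median in contralateral knees was −0.73. Without contralateral day 7 replicate 1, whose summed level was 2980 CPM against 13300 and 12200 CPM in the other 2, it was −0.33. Over the 21 functional lists together, 235 of 626 tested genes rose and 8 fell (17 without day 1 replicate 2), beside 9.04% and 6.38% of all genes. Without day 1 replicate 2, the lower members also numbered 2 each, against 1, in the lists of cartilage matrix, Wnt and FGF, IGF, PDGF and VEGF genes, and 1, against 0, among inhibitors and serine proteases.

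**Figure D3:**
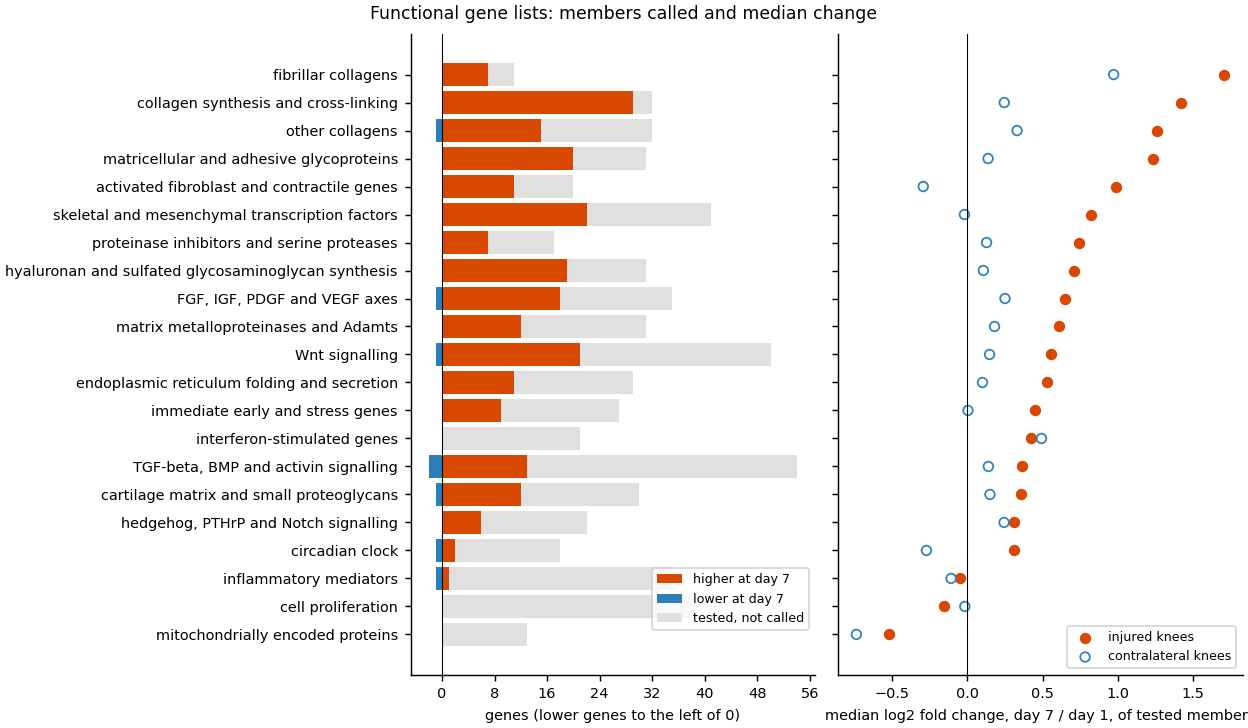
The 21 functional gene lists, with the number of tested members called higher (orange), lower (blue, to the left of 0) or not called (grey) in injured knees on the left, and the median log2 fold change of day 7 against day 1 on the right for injured (filled) and contralateral (open) knees. The lists of fibrillar collagens, collagen synthesis, other collagens and matricellular proteins have medians above 1 in injured knees, and the list of mitochondrially encoded proteins has the lowest median in both knees, at −0.73 in contralateral knees and −0.33 without contralateral day 7 replicate 1.

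Markers of other cell types are given for every list, beside the 9.04% of all genes called higher and 6.38% lower. Of 7 tendon and ligament markers 6 rose (Fmod, Kera, Mkx, Scx, Thbs4 and Tnmd) and Angptl7 fell, the last not called without day 7 replicate 3 (edgeR FDR 0.0515). Their summed level was 775, 462 and 576 CPM at day 1 and 1730, 1840 and 2290 CPM at day 7, with Fmod the most abundant. Tnmd, the defining marker of tendon cells, stood at 11.3, 2.83 and 8.25 CPM and then at 89.1, 82.6 and 93.4 CPM. Of 12 synovial fibroblast markers Cd34, Hmcn1 and Thy1 rose, whereas Prg4, lubricin of the joint surface and the most abundant of the list, stood at 892, 1780 and 743 CPM and then at 730, 1130 and 1770 CPM. The summed level of these markers overlapped between the days (1310, 2030 and 1200 CPM, then 1240, 1710 and 2340 CPM). Of 14 chondrocyte markers Acan, Comp and Sox9 rose and Cytl1 fell (2 fell without day 1 replicate 2). Their sums were 6080, 3790 and 6200 CPM and then 7030, 7920 and 7630 CPM. For 13 macrophage markers, 3 of which rose, C1qa and C1qb among them, the sums were 2870, 2500 and 2320 CPM and then 3020, 2760 and 2490 CPM. Only 1 macrophage marker was called without day 1 replicate 3. Endothelial and pericyte markers each had 3 members higher, of 12 and 8, and 5 endothelial markers were called without day 1 replicate 3 or day 7 replicate 1 or 2. Both counts were 2 without day 1 replicate 2. The call of the pericyte marker Rgs5 was lost in 5 of the 6 fits without 1 injured library (edgeR FDR 0.0501 to 0.142). One osteoclast marker (Ctsk of 10) and 1 hypertrophic marker (Mmp13 of 8) were called higher, both shares near that of all genes. In contralateral knees the log2 fold change of Ctsk was 1.02 and that of Mmp13 1.17, beside 1.06 and 0.78 in injured knees, and the differences did not pass (edgeR FDR 0.98 and 0.634). The medians of these lists were 0.73 and 0.65 in contralateral and 0.39 and 0.38 in injured knees. Of the osteoblast and osteocyte markers 2 of 12 (Mepe and Sost) were called lower, 1 without day 1 replicate 3 or day 7 replicate 1. No marker of these lists was at 0 in all injured libraries. What part a change in the makeup of the tissue had in the results above was not tested.

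Among called protein-coding genes with separate groups and at least 5 CPM, the 10 that fell furthest included genes of fat and skeletal muscle. Cytl1, a small secreted protein of chondrocytes, fell furthest of the genes with separate groups and at least 5 CPM. It stood at 101, 33.8 and 102 CPM at day 1 and at 16.6, 17 and 14.5 CPM at day 7 (log2 fold change −2.28, standard error 0.431, edgeR FDR 0.00154). The 9 others of this set were Ankrd2, Klhdc7a, Cnksr1, Hspb7, Asb5, Plin4, Trim63, E030018B13Rik and Pdk4. Ankrd2, Hspb7, Asb5 and Trim63 are known from striated muscle, and Plin4 coats lipid droplets of adipocytes. Hspb7 stood at 37.0, 38.5 and 36.3 CPM and then at 12.8, 5.58 and 13 CPM. The most abundant genes called lower were Acta1, Slc25a37, Car3, Cd36 and Cfd. All 10 adipocyte markers had log2 fold changes below 0, with a median of −1.46, and 4 of them (Cfd, Cidec, Plin4 and Retn) were called, against 6 by DESeq2 and 1 by limma-voom. The call of Retn held only without day 1 replicate 2 among the fits without 1 injured library (edgeR FDR 0.0901 to 0.132 in the 5 others). Their summed level was 915, 257 and 804 CPM at day 1 and 272, 311 and 221 CPM at day 7, so that day 1 replicate 2 lay in the range of day 7. Of the 12 muscle markers, all below 0 with a median of −0.94, Acta1 alone was called, a share near the 6.38% of all genes, and the sums overlapped in the same way (8560, 3650 and 13300 CPM, then 5340, 2580 and 4500 CPM). Without day 1 replicate 2, 9 adipocyte and 6 muscle markers were called lower. Without any other injured library 1 adipocyte marker was, and no muscle marker was without day 1 replicate 1 or 3 or day 7 replicate 2 or 3. The calls of Ankrd2, Pdk4, Car3 and Cfd were lost without day 1 replicate 3 and without any 1 day 7 library, those of Trim63 and Acta1 without day 1 replicate 3 or day 7 replicate 2 or 3, and those of Pdk4, Acta1, Car3 and Cfd also without day 1 replicate 1 (edgeR FDR 0.0533 to 0.202). The log2 fold changes in these fits ran from −2.28 for Ankrd2 to −0.84 for Acta1. The call of Slc25a37 was lost without day 1 replicate 2 (edgeR FDR 0.0613) or day 7 replicate 3 (edgeR FDR 0.0585) and, by the fold limit, without day 7 replicate 1 (log2 fold change −0.58).

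Few markers of blood and marrow were called. By edgeR's test none of 11 erythroid, 8 B cell, 9 T and NK cell, 7 mast cell and 7 Schwann cell markers was called. At an unadjusted p of 0.05, 6, 1, 2, 0 and 0 of them passed, in this order, and DESeq2 called 1 erythroid marker lower and 1 T and NK cell marker higher. By edgeR, 1 B cell marker was called lower without day 1 replicate 1 and 1 erythroid marker without day 1 replicate 3. The erythroid sums were 25000, 34600 and 19700 CPM at day 1 and 27900, 23800 and 17000 CPM at day 7, with Hbb-bs the most abundant. Of 12 neutrophil and marrow markers, summing to 13700, 8510 and 8660 CPM and then to 11100, 8590 and 8170 CPM, Csf3r alone was called lower. Its log2 fold change of −0.59 fell under the 1.5-fold limit without day 1 replicate 3 or day 7 replicate 2 or 3.

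**Figure D4:**
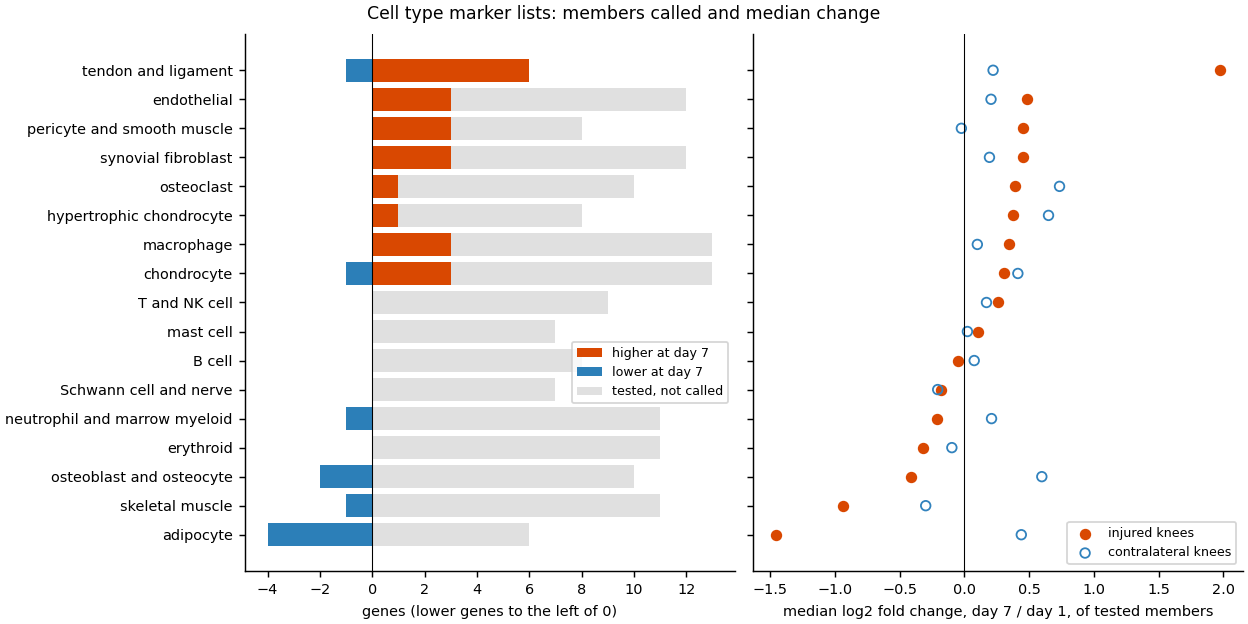
The 17 cell type marker lists, drawn as the functional lists are, with members called on the left and median log2 fold changes of injured (filled) and contralateral (open) knees on the right. The tendon and ligament list has the highest median in injured knees (1.98), and the adipocyte list the lowest (−1.46).

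Most genes lower at day 7 were not protein-coding. Of the 1347, 758 (56.3%) belonged to other classes, which supplied 5043 of the genes tested. Of 1400 lincRNA genes tested 17% were lower and 1.07% higher, of 1328 antisense genes 17.2% and 0.904%, and of 197 sense intronic genes 28.9% and 0. Protein-coding genes were lower in 3.66% and higher in 11.3% of 16086 cases. Under upper quartile scaling 1221 protein-coding genes were higher and 1237 lower, against 1819 and 589 with TMM. The kit marked strand, but whether the counting used it is not given in the sources used here, so that antisense reads and those of the partner gene may not be told apart. Together the lincRNA, antisense and sense intronic genes took 1.32%, 1.5% and 1.46% of all estimated counts in the day 1 injured libraries and 0.878%, 0.857% and 0.938% at day 7. The 2 groups did not overlap. Other shares of the counts moved with this one. The 10 most abundant genes of each library took 19.5%, 18% and 16.6% of its counts at day 1 and 29.8%, 29.8% and 26.4% at day 7, and processed pseudogenes took 4%, 3.89% and 3.32% and then 8.14%, 5.75% and 4.8%. Their part in the lower counts of non-coding genes was not tested. The same classes took 1.22% to 1.43% in contralateral knees at day 1, 0.761% to 1.12% in contralateral knees at day 7 and 1.03% to 1.48% in naive knees. Contralateral values thus also lay lower at day 7 than at day 1. The share of lower genes was larger at low levels. Among genes under 1 CPM 9.65% were lower and 1.44% higher, at 1 to 10 CPM 12.1% and 9.33%, at 10 to 100 CPM 1.4% and 12.0%, and at 100 CPM or more 0.571% and 16.8%. Genes with at least 10 counts numbered 20263, 20589 and 19651 at day 1 and 18190, 17050 and 18240 at day 7. When the fit held protein-coding genes only, 1469 were higher and 820 lower.

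The contralateral knees show what the same interval brought without the ligament injury. Between day 1 and day 7, edgeR's test called 4 of 21262 genes in them (0.0188%), 3 higher and 1 lower, and 2638 passed at an unadjusted p of 0.05. DESeq2 called 70 higher and 10 lower, and limma-voom none. In none of the fits without 1 contralateral library was any gene called by edgeR. The difference between the changes of injured and contralateral knees was tested directly. It was more positive in injured knees for 791 genes (3.72%) and more negative for 61 (0.287%) at an FDR of at most 0.05. Of 1909 genes higher in injured knees that this test held, 744 passed it in the same direction, and of the 1347 lower genes 32 did. Without contralateral day 7 replicate 1 these counts were 876 and 46. They were 589 and 38 without injured day 1 replicate 2, 443 and 11 without contralateral day 1 replicate 3, 480 and 10 without injured day 1 replicate 1, and 390 and 6 without injured day 7 replicate 3. The count of lower genes was also 15 or 16 without injured day 1 replicate 3 or day 7 replicate 2, and 20 without contralateral day 1 replicate 1. The genes called lower had a median log2 fold change of −1.03 in injured knees and −0.36 in contralateral knees, where 1156 of them lay below 0. The genes called higher had medians of 0.98 and 0.13, and 1281 of them lay above 0 in contralateral knees. Without contralateral day 7 replicate 1 the contralateral medians were −0.31 and 0.087. A gene that failed the test of the difference is not shown to change alike in both knees. The genes called in injured knees were chosen by a change that the difference contains, so that passing is not an independent result.

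The genes named first passed this test, but they were chosen by their change in injured knees, which the difference contains. Their passing is thus no separate support for that change. For C1qtnf3 the difference was 6.62 (standard error 0.46, edgeR FDR 6.64e-07), and for Matn2, Sulf2, Loxl2, Gdf5, Sox9, Htra1, Adamts7 and Acvr1 it lay between 1.05 (Adamts7) and 2.76 (Matn2), with edgeR FDRs from 6.64e-07 to 0.0351. Of the 10 genes that rose most, Agtr2 did not pass (difference 3.40, edgeR FDR 0.0738). Atf3 did not either (1.12, edgeR FDR 0.0815). Of the 10 that fell most, Cytl1, Klhdc7a and E030018B13Rik passed, with differences of −2.58, −2.43 and −1.20. Without contralateral day 1 replicate 3, these 3 did not pass (edgeR FDR 0.0545 to 0.121), and neither did Gdf5, Adamts7 or Fn1 (edgeR FDR 0.0705 to 0.142). Of the lists, 20 of the 32 genes of collagen synthesis changed more positively in injured knees, as did 3 of 11 fibrillar collagens. So did 10 of 31 matricellular genes, 14 of 51 Wnt genes and 11 of 41 transcription factors, beside 3.72% of all genes. Without contralateral day 1 replicate 3 these counts were 10, 2, 7, 11 and 7, in this order. Sost of the Wnt list and Sp7 of the transcription factors were more negative, beside 0.287% of all genes. They are also the 2 of 12 osteoblast and osteocyte markers that passed. No such marker passed without contralateral day 1 replicate 3, and 4 others did without contralateral day 7 replicate 1. None of 36 inflammatory and 38 proliferation genes passed, and 1 of 27 immediate early and stress genes did. Of the adipocyte and muscle markers none passed, and Plin4 alone did without contralateral day 7 replicate 1 (difference −1.75, edgeR FDR 0.0241).

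**Figure D5:**
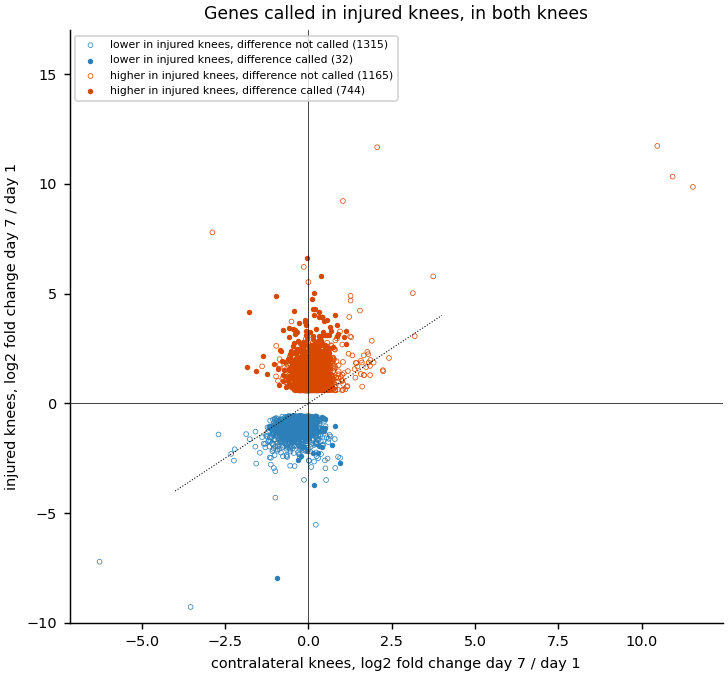
Log2 fold change of day 7 against day 1 in contralateral knees (x axis) and injured knees (y axis) for genes called in injured knees, orange where higher and blue where lower, filled where the difference between the knees was called. The dotted line marks equal change in both knees, and of the higher genes 744 of 1909 are filled, against 32 of 1347 of the lower genes.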

How the data were processed

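The authors trimmed the reads with Trimmomatic 0.39, pseudo-aligned them with kallisto 0.46.1 to the mouse transcriptome, named as GRCm38, and deposited estimated counts per transcript without normalization. The submitters' processing notes name kallisto, DESeq2 and the human build GRCh38, although the identifiers are those of mouse genes. The deposited TPM, scaled by the authors' run of kallisto to transcript length and library total, were used only to compare levels between genes and, with the effective lengths in bases, for a length offset. The share that TPM gives a gene also moves with very short RNAs, so that TPM were not compared between days. Of 137436 transcripts, 135107 (98.3%) matched GENCODE gene models of GRCm38. Adding up their estimated counts gave 49184 genes, whose values were rounded to whole numbers. Library totals ran from 16074762 to 41794005.

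edgeR 4.0.16 (R 4.3.3) fitted a mean for each group to the 15 libraries outside the day 7 contralateral group, with TMM factors and its default low-count filter, and to all 18 libraries for contralateral changes and for the difference. Its quasi-likelihood test gave p-values, adjusted by Benjamini-Hochberg over all genes, and standard errors were taken as the log2 fold change over the root of F. Calls required an FDR no higher than 0.05 and 1.5-fold. CPM were scaled by TMM over 18 libraries. Labels do not say which knees share mice, so the study's step for shared mice was not repeated. The study pooled left and right knees of mice separately, so that naive libraries can share mice. Contralateral day 1 libraries came from the mice of the injured day 1 libraries. The p-values thus measure a spread between libraries, not all of which are independent pools. Fitted on the 6 injured libraries only, 1686 genes were higher and 1037 lower. The study removed 1 ACL library, which is not named. Tested on simulated data with a 3-fold change of 200 genes between day 7 and day 1 injured libraries, this fit of 20720 genes called 178 of them and 6 unchanged genes. The changed genes had a mean of at least 1 CPM, as many were raised as lowered, and the simulated libraries were independent. The simulation thus says nothing on genes of lower level, on libraries that share mice or on the balance of directions. Alternatives used limma 3.58.1, DESeq2 1.42.0, other scalings and filters, and each library left out.

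The comparison, the 21 functional lists and the 17 marker lists were chosen with earlier results of these data known. Single genes were named as the 10 furthest up and down among called protein-coding genes with separate groups and at least 5 CPM, the 5 most abundant called genes in each direction, the called member with the largest change and the most abundant member of each list, and 12 genes taken from the text or tables of the study. Other list members were picked after their values were seen. A few list members are not reported here by name.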

Additional observations from a re-analysis of the deposited data

Results flagged for a closer look

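The change between day 1 and day 7 differed between injured and contralateral knees for 744 of the genes called higher and 32 of those called lower in injured knees, by edgeR's test of the difference itself. Of 40 named genes tested this way, most of them chosen by their change in injured knees, 22 differed. Without contralateral day 1 replicate 3 these counts were 443, 11 and 16, and Fn1, Adamts7, Gdf5, Cytl1, Klhdc7a and E030018B13Rik did not pass. On the log2 scale, the change was more positive in injured knees by 6.62 for C1qtnf3, 5.92 for Moxd1, 5.39 for Lrrc15, 4.84 for Tnn, 4.63 for Mest, 4.6 for Postn, 4.15 for Aspn, 4.1 for Ptn and 3.85 for Cthrc1. Among the matrix genes it was more positive by 2.8 for Col3a1, 2.76 for Matn2, 2.56 for Sulf2, 2.16 for Loxl2, 1.76 for Htra1, 1.66 for Fn1 and 1.05 for Adamts7, and among regulators by 2.6 for Gdf5, 1.44 for Sox9 and 1.06 for Acvr1. It was more negative for Cytl1 (−2.58), Klhdc7a (−2.43) and E030018B13Rik (−1.2).

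Single naive libraries lay far from the 5 others of their group in 6 of 57 values examined, where about 1 in 20 is flagged by chance. Naive replicate 5 held 14.4 CPM of Cthrc1, where the others held 7.31 or less, and 3.74 CPM of Moxd1, where the others held 1.3 or less. Naive replicate 4 held 114 CPM of Loxl2, with the others at 77.8 or less, and 31.2 CPM of Fyn, with the others at 36.5 or more. The summed chondrocyte markers reached 8130 CPM in naive replicate 3, with the others at 5580 or less, and the Schwann cell and nerve markers 99.3 CPM in naive replicate 2, with the others at 82.8 or less. Each of these naive values for Cthrc1, Moxd1 and Loxl2 lay below all day 7 injured libraries.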

How the results depend on the processing

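In injured knees, the counts moved most with the rule and the scaling. Without the fold limit 3427 genes were higher, and with a test against a 1.5-fold change 724 were higher and 85 lower. The lower genes numbered 382 at an FDR of 0.01, 2564 under upper quartile scaling and 820 among protein-coding genes only, an alternative added after seeing the data, and 849 to 1173 without 1 library (1584 to 1956 higher). Of the functional lists, 147 members were higher in the test against 1.5-fold, and 202 to 237 without 1 library. Their 8 lower members became 14 without the fold limit, 3 at an FDR of 0.01, 20 under upper quartile scaling, 5 with limma-voom, 1 in the test against 1.5-fold, 13 among protein-coding genes only, and 5 to 17 without 1 library. In contralateral knees, 0 genes in either direction were called at an FDR of 0.01, under upper quartile scaling, with limma-voom, among protein-coding genes only or without any 1 library (lowest and highest 0), whereas DESeq2 called 70 higher and 10 lower. The difference between the knees was more positive for 341 genes at an FDR of 0.01 and 517 under upper quartile scaling (396 to 979 without 1 library), and more negative for 3, 133, 196 with DESeq2, 96 among protein-coding genes only and 9 to 93 without 1 library. Of the genes called higher in injured knees, 340 passed at 0.01 (390 to 876 without 1 library), and of the lower genes 1 at 0.01, 76 with DESeq2 and 6 to 46 without 1 library. All other planned or added settings kept these counts within 1.5 times. The cause of these shifts was not tested, beyond the stricter or looser rule itself.

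Of 178 values for named genes and single lists, 92 kept their direction and call in all settings run. The sign changed for 8 genes, none of them called. Upper quartile scaling put Prg4 at −0.087 and Ighm at −0.14, and a filter of 1 CPM in 3 libraries put Ighm at −0.0016. Without 1 injured library, log2 fold changes ran from −0.27 to 0.58 for Prg4, −0.12 to 0.18 for Ighm, −0.35 to 0.33 for Rsad2, −0.16 to 0.067 for Lyz2, −0.19 to 0.22 for Ngp, −0.40 to 0.13 for Hbb-bs, −0.15 to 0.020 for Zeb2 and −0.076 to 0.48 for Nkg7. No paired analysis was possible because day 1 and day 7 injured knees came from different mice and the replicate numbers follow accession order. At the depth of 19296475 to 29086832 counts, a gene with 3 or fewer counts in every library of both groups gives no fold.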

Other observations

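A list of 16 imprinted genes that act in prenatal growth was put together after H19 and Mest had been seen among the genes that rose, so that its counts describe genes chosen for their pattern and are no test. All 16 were called higher at day 7, beside 9.04% of all genes, with a median log2 fold change of 2.12 in injured knees and 0.073 in contralateral knees. H19, the maternally expressed non-coding RNA beside Igf2, had a mean of 43.4 ± 16.8 CPM (SD, n = 3) at day 1 and 381 ± 128 CPM (SD, n = 3) at day 7. The growth factor adaptor Grb10 had means of 63.0 ± 4.70 and 285 ± 64.7 CPM (SD, n = 3), and Peg3, a zinc finger gene, 32.6 ± 9.24 and 143 ± 31.3 CPM (SD, n = 3). The non-coding RNAs Meg3, Rian and Mirg share the locus of the paternally expressed Dlk1. Their log2 fold changes were 1.52, 2.39 and 1.87, and that of Dlk1 was 3.13. The difference from the contralateral change passed edgeR's test (FDR of at most 0.05) for 12 of the 16, beside 3.72% of all genes more positive. It did not for Cdkn1c, Peg10, Sgce and Ndn.

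Genes of olfactory and vomeronasal receptors, which serve smell, were also looked at after the lower genes had been seen. Of 511 that passed the filter on low counts, 155 were called lower at day 7 and 1 higher, beside 6.38% lower of all genes, 9.65% of those under 1 CPM and 12.1% of those at 1 to 10 CPM, with a median log2 fold change of −0.74 in injured and −0.41 in contralateral knees. None passed the test of the difference between the knees by edgeR. Of 104 small nucleolar RNA genes tested, 18 were called higher and 1 lower, beside 9.04% and 6.38% of all genes, with medians of 0.55 and 0.45 in the 2 knees, and the difference passed for 1.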
